A study of Drosophila melanogaster with 136 samples.

Results

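Drosophila S2 cells carrying mutations in dora were depleted of AGO1 by RNA interference (RNAi), and their poly(A) RNA was compared with that of the same cells given a control RNAi against GFP. The comparison used 6 libraries, chosen by their labels, of the 136 in the series: 3 dora clones, each with 1 Ago1 RNAi and 1 GFP RNAi library. The same RNAi treatments of 3 WT clones (6 libraries) and the untreated dora and WT clones (6 libraries) were used to show where the dora clones differ. S2 cells are an embryonic Drosophila line with hemocyte (blood cell) character, and the replicates are clonal lines. Each clone is compared with itself in the RNAi tests, so their p-values rest on how the response varies from clone to clone. This spread is estimated over both genotypes. In the test of the untreated libraries the spread is that between clones. The labels give the genotype as Dora or WT without the lesion, and the sequence of the double-stranded RNA (dsRNA) is not given in the sources used here. For all 12 RNAi samples cells were kept at 26 °C (Schneider's medium, 10% serum), received 2 transfections of 2 µg dsRNA 3 days apart with Effectene and were collected 4 days after the second. Both groups of a genotype thus share the transfection with dsRNA and by label differ in its target.

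AGO1 is the Argonaute protein that most Drosophila miRNAs load into. Loaded AGO1 recruits GW182 (gene gw) and with it the deadenylation and decapping machinery, which lowers the translation and stability of mRNAs with matching sites, mostly in 3′ UTRs. Dora, the fly ortholog of ZSWIM8, recognises substrates for a ubiquitin ligase built on a cullin, and this ligase acts on Argonaute when a miRNA is paired extensively to a trigger transcript, so that the miRNA is degraded. Cells without Dora keep the miRNAs of such triggers at higher levels. No miRNA or target-site sequence was used here, so no gene is called a direct target below.

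The dora libraries held 11.6 to 35.5 M reads counted in genes, and 7861 genes with enough reads were tested. Levels are given as CPM, counts scaled to the library total after TMM scaling. Changes are log2 fold changes from edgeR's quasi-likelihood test, in which each clone is its own control. The standard error (SE) was derived as the absolute log2 fold change over the square root of the test's F statistic. The p-values carry Benjamini-Hochberg adjustment over all genes tested, with a threshold of 0.05. A rise or fall of a transcript in these bulk samples cannot be told apart from a change in the share of cells that make it. Transcripts of some hemocyte genes were present in every dora library. The GATA factor gene srp stood at 310.2, 345 and 291 CPM in dora clones 1, 2 and 3 with GFP RNAi. The scavenger receptor gene crq stood at 355, 428 and 421 CPM in the same libraries. Of 18 hemocyte genes listed, 6 stayed under 1 CPM in all 6 dora libraries, and the phagocytic receptor gene NimC1 had no reads. Of markers of other cell types in the table, 7 of 9 neuron, 6 of 10 muscle, 7 of 9 fat body and 9 of 9 epidermis markers stayed under 1 CPM in all 6 dora libraries. Of the germline markers only 4 of 9 did. Some markers were thus well above 0. Summed levels in the dora controls were 828 to 1000 CPM for germline, 87.5 to 95.9 CPM for neuron and 68.7 to 78.6 CPM for muscle markers.

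AGO1 itself (chr2R:13943387-13958089 in dm6) stood at 478, 436 and 438 CPM in dora clones 1, 2 and 3 with GFP RNAi and at 204, 198 and 205 CPM with Ago1 RNAi. All 3 knockdown libraries lay below all 3 controls, with little spread within either group, and part of the transcript remained (-1.15, SE 0.12, adjusted p = 3.34e-05). The fall did not pass the test of a difference from that in WT clones (0.22, SE 0.17, adjusted p = 0.629). Dora transcript (chrX:18863950-18884075) was still made in the dora clones, at 83.5, 111 and 84.8 CPM with GFP RNAi, and rose to 141, 178 and 139.6 CPM with Ago1 RNAi (0.72, SE 0.06, adjusted p = 5.38e-07). Every Ago1 RNAi library was above every control for Dora, and the gene also rose in WT clones (0.55).

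Transcripts of the silencing pathway responded unevenly. Of 19 tested genes for GW182 partners, deadenylation and decapping, 10 rose and 3 fell, where 32.5% of all genes tested rose and 34.4% fell. The median of the list was 0.17, beside -0.01 over all genes. Edc3, an enhancer of decapping, rose most, from 54.5, 48.5 and 48.2 CPM to 163, 153 and 163 CPM, without overlap of the groups (1.66, SE 0.07, adjusted p = 2.24e-09). PAN3, the adaptor of the PAN2 deadenylase, rose by 1.27 (adjusted p = 1.98e-08), Not1, the scaffold of the CCR4-NOT complex, by 0.76, and pcm, the 5′ exonuclease gene, by 0.79. The members that fell were Not10 (-0.48), the poly(A)-binding protein gene pAbp (-0.35) and the deadenylase gene Pop2 (-0.34). gw gave 0.09, SE 0.10, adjusted p = 0.451, with overlapping groups.

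Of 16 genes for miRNA biogenesis and small RNA effectors, AGO1 included, 7 rose and 4 fell. The Dicer-1 partner loqs (0.89), the 3′-trimming exonuclease gene Nbr (0.81), the Drosha partner pasha (0.67) and Dcr-1 (0.50) rose. Dcr-1 stood at 96.5, 97.9 and 88.2 CPM in the controls and 137, 139.7 and 122 CPM after knockdown. The siRNA effector gene AGO2 fell slightly, from 662, 634 and 663 to 519, 539 and 520.0 CPM (-0.31, SE 0.06, adjusted p = 0.00094), and Dcr-2 gave -0.03 (adjusted p = 0.699). The PIWI-clade genes aub (-3.84) and piwi (-0.98) fell, aub from 29.6, 17.1 and 11.3 to 1.70, 0.881 and 1.09 CPM. Among 13 genes for Dora and cullin-RING ligase subunits, 6 rose, with Dora itself the most, and 4 fell, namely the small proteins Nedd8 (-0.57), Roc1a (-0.51), EloC (-0.39) and EloB (-0.35).

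Across the transcriptome of the dora clones 2551 genes rose and 2702 fell, and the median change was -0.01. Of these genes 2233 also rose and 2387 also fell in WT clones, so most of the response was shared by the genotypes. Falls were larger than rises: at 2-fold or more, 468 genes (5.95%) were higher and 932 (11.9%) lower, and at 4-fold or more 74 were higher and 440 lower. In 29.5% of genes all 3 Ago1 RNAi values exceeded all 3 controls, and in 31.2% all were below. Genes on chromosome 4, a small and largely heterochromatic chromosome, were shifted upwards: 52.6% of its 76 tested genes rose and 10.5% fell, with a median of 0.34. The share that rose was 36.1% on the X and 30.3% to 31.8% on the other arms.

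**Figure D1:**
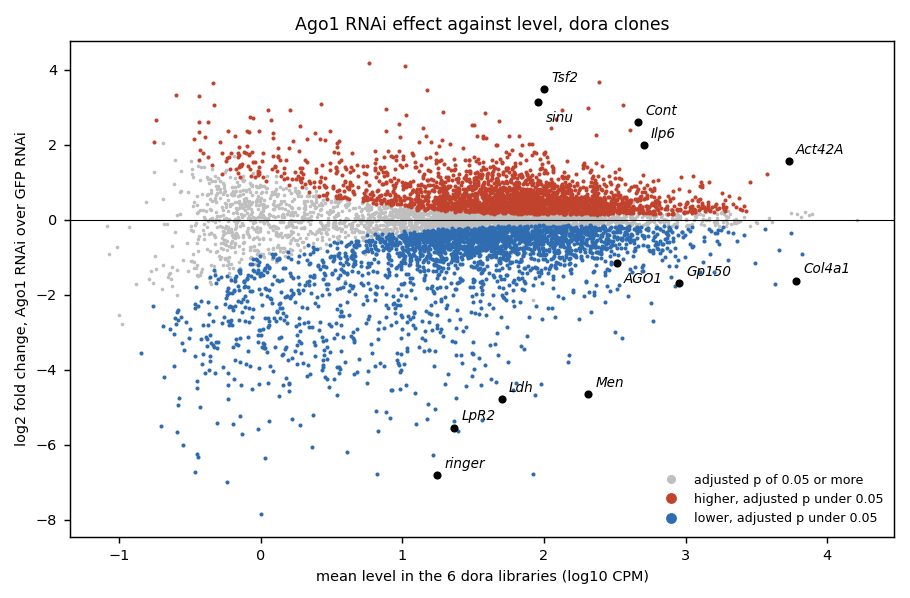
Log2 fold change between Ago1 RNAi and GFP RNAi in dora clones (y axis) against the mean level in the 6 libraries (x axis, log10 CPM) for 7861 genes; red points rose and blue points fell at an adjusted p under 0.05, and 12 genes named in the text are marked in black. The lower cloud reaches further from 0 than the upper one: 440 genes fell by 4-fold or more and 74 rose by as much.

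Genes of the septate junction, the occluding junction of fly epithelia and glia, had the highest median change of the 38 lists. Of 27 tested members 21 rose and 3 fell, and their median was 1.44. The claudin-like proteins of the junction rose strongly. sinu (chr3L:5559470-5561598) stood at 20.4, 19.0 and 16.2 CPM in clones 1, 2 and 3 with GFP RNAi and 173, 158 and 160.3 CPM with Ago1 RNAi, 8.87-fold higher (3.15, SE 0.08, adjusted p = 6.46e-11). pck rose from 14.6, 12.8 and 12.9 to 74.9, 81.2 and 92.7 CPM (2.63) and kune from 22.3, 23.9 and 23.7 to 64.3, 70.8 and 69.0 CPM (1.55). For all 3 claudin genes the lowest knockdown library was well above the highest control.

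Genes for adhesion proteins of the junction also rose. Lac, which encodes the immunoglobulin-domain protein Lachesin, rose from 80.6, 65.0 and 85.6 to 651, 591 and 681 CPM (3.06, SE 0.08, adjusted p = 9.77e-11). Cont (Contactin) rose from 126, 119 and 143 to 759, 728 and 886 CPM (2.61, SE 0.07, adjusted p = 8.92e-11), and its partners Nrx-IV (1.44) and Nrg (1.45) rose as well. Mcr, a complement-related junction protein, rose from 120.5, 117 and 151 to 654, 628 and 767 CPM (5.28-fold, adjusted p = 2.63e-10), and Tsf2, a transferrin needed for junction assembly, from 14.1, 15.8 and 19.1 to 170.4, 177 and 204 CPM (3.49, SE 0.13, adjusted p = 3.91e-08). The 3 clones moved together in each case, with no overlap. The Ly6 proteins that guide junction components through the secretory pathway also rose: crim from 2.53 to 27.4 CPM (3.46), crok from 9.29 to 67.5 CPM (2.86) and cold from 14.1 to 63.8 CPM (2.18). pasi1 and pasi2, membrane proteins of junction assembly, rose by 2.89 and 1.19. crok (chr2L:12172981-12174091) lies next to another riser, CG6583 (chr2L:12171204-12172586), which went from 9.11 to 52.9 CPM (2.54).

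The scaffold and polarity members rose less, among them vari (1.60), l(2)gl (1.01), scrib (0.85) and yrt (0.70), and dlg1 (0.25) and cora (0.21) least of those called. The pump subunit gene Atpalpha gave -0.14, SE 0.07, adjusted p = 0.0799. The 3 members that fell were bark (-2.53) and Gli (-1.32), which act at the corners where 3 cells meet, and Ssk (-0.89), a protein of the smooth septate junctions of the gut. Their control levels were low, at 7.19, 11.1 and 4.65 CPM on average. Summed over the 29 listed genes, the list took 4611 to 4789 CPM in the controls and 8650 to 9494 CPM after knockdown.

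**Figure D2:**
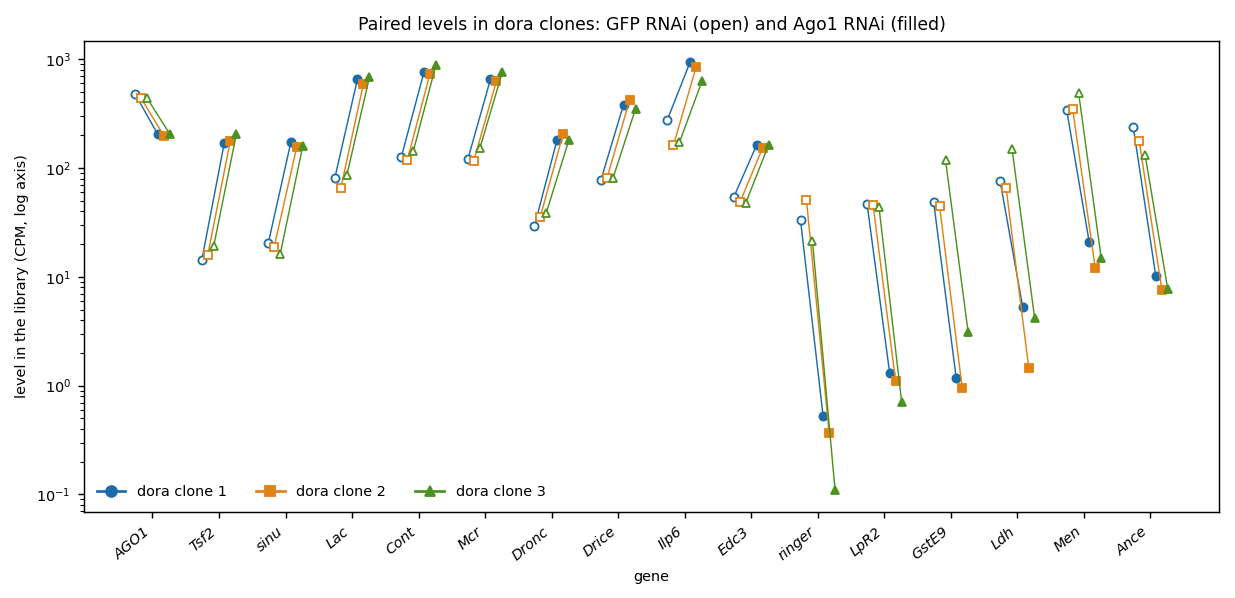
Level (CPM, log axis) of 16 genes in dora clones 1, 2 and 3, with the GFP RNAi library of a clone (open symbol) joined by a line to its Ago1 RNAi library (filled symbol). The 3 lines of a gene run nearly in parallel for most genes. After knockdown the clones spread widely relative to the level for ringer, GstE9 and Ldh (Ldh 5.29, 1.47 and 4.15 CPM in clones 1, 2 and 3).

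Among cell death genes, Dronc and Drice rose the most. Dronc, the initiator caspase gene, went from 29.2, 35.7 and 38.9 CPM to 180.2, 204 and 182 CPM (2.45, SE 0.08, adjusted p = 2.8e-10), and the effector caspase gene Drice from 77.6, 80.6 and 80.1 to 382, 417 and 349.7 CPM (2.27, SE 0.07, adjusted p = 2.63e-10). Neither gene's groups overlapped, and both were more than 4-fold higher in every clone. Of 13 tested apoptosis genes 8 rose and 3 fell (5 rose without dora clone 1), with a median of 0.33. Over all genes 32.5% rose and 34.4% fell. The apoptosome adaptor gene Dark (0.35), the caspase-8 relative Dredd (0.72) and the inhibitors Diap1 (0.23) and Diap2 (0.20) rose by less. The Bcl-2 family gene Debcl fell from 61.2, 55.6 and 61.1 to 24.2, 25.6 and 17.7 CPM (-1.43) and the caspase gene Strica from 188 to 138 CPM (-0.44). The IAP antagonists rpr and hid, whose products start cell death, were at 1.96 and 0.238 CPM in the controls, with changes of -2.86 and 1.48 from so few reads.

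The signalling lists moved in different directions. Over all genes tested 32.5% rose and 34.4% fell. Of 14 EGFR and Ras pathway genes 10 rose (median 0.56). These included the ligand spi, from 763, 628 and 558 to 1293, 1219.7 and 931 CPM (0.82), the kinases Raf (0.65), Dsor1 (0.64) and rl (0.92), and the nuclear effectors pnt (0.36) and aop (0.57). The feedback inhibitor genes sty (adjusted p = 0.165) and aos (adjusted p = 0.505) did not pass. Of 11 BMP and activin genes 8 rose and 2 fell. The BMP ligand gbb went from 100.5, 114 and 96.6 to 258, 315 and 241 CPM (1.38), and the transducer Mad (0.91) and the receptors babo (0.67), tkv (0.58), put (0.39) and sax (0.36) rose. The activin-like ligand daw fell from 2.73, 1.44 and 8.02 to 0.196, 0.0734 and 0.545 CPM (-3.87), and the inhibitory Smad gene Dad fell (-0.68).

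In the JAK-STAT list (10 tested) 6 members fell and 2 rose, beside 34.4% and 32.5% of all genes. The secreted ligands upd2 (-3.95) and upd3 (-3.75) fell, upd3 from 6.73, 3.40 and 5.11 to 0.327, 0.441 and 0.355 CPM, as did the receptor dome (-0.35) and the pathway's target and inhibitor Socs36E (-1.01). The kinase gene hop rose (0.43), and the transcription factor gene Stat92E gave -0.09, SE 0.07, adjusted p = 0.277. Of 14 JNK and TNF genes 8 rose and 3 fell (4 rose with upper-quartile scaling and 5 without dora clone 2). The TNF ligand gene egr fell from 668, 816 and 512 to 419, 484 and 317 CPM (-0.71), the adaptor Traf4 fell (-1.86) and the adaptor Traf6 rose (1.50). Of 10 genes in the Notch list (Notum, not a member of the pathway, among them) 5 rose and 3 fell. The share that fell was near that of all genes. The falls were hairy, named hry in the reference (-0.38), and the Notch target genes E(spl)m7-HLH (-2.76) and E(spl)mbeta-HLH (-4.31). E(spl)mbeta-HLH was at 0.673 CPM in the controls. The ecdysone list (15 tested) had 8 rises, with the receptor subunits EcR (0.74) and usp (0.75) and the early gene br (1.75), and 4 falls, with Eip93F (-1.30) and ImpL2 (-1.38).

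Transcripts of energy metabolism fell together. Each of the 12 glycolysis genes fell (median -1.26), and in each the 3 knockdown values were below the 3 controls. Pfk, the committing step, went from 75.1, 88.4 and 152 to 32.0, 33.8 and 38.8 CPM (-1.55, SE 0.14, adjusted p = 1.18e-05) and Gapdh2 from 629, 764 and 769 to 266, 247 and 328 CPM (-1.37). Ldh, which turns pyruvate into lactate, fell 27.4-fold, from 75.8, 65.9 and 149 to 5.29, 1.47 and 4.15 CPM (-4.77, SE 0.36, adjusted p = 0.000109). In the TCA cycle list 13 of 14 fell (median -0.66). Men, encoding malic enzyme, fell from 342, 348 and 488 CPM to 20.7, 12.0 and 14.8 CPM (-4.66, SE 0.25, adjusted p = 2.11e-05), while the cycle enzymes themselves lay between -0.98 (Pdha, of the pyruvate dehydrogenase that feeds the cycle) and -0.14 (Scsalpha1, adjusted p = 0.0668).

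In mitochondria 64 of 67 oxidative phosphorylation genes fell and 1 rose, with a median of -0.73. ND-13B (-1.23), ND-B14 (-1.22) and ND-24 (-1.11), all of complex I, fell most among members above 1 CPM in the controls, and ATPsyndelta rose, from 50.7, 62.4 and 97.8 to 99.1, 107 and 116 CPM (0.65). Of 70 mitochondrial ribosomal protein genes 63 fell (median -0.62), led by mRpS33 (-1.37) and mRpS14 (-1.21). Cytoplasmic ribosomal protein genes went the other way by small amounts. Of 77 tested 45 rose and 4 fell, with a median of 0.25, and RpS7 went from 1537, 2147 and 2044 to 2564, 3182 and 2843 CPM (0.59). The count changed with the samples used: 19 rose without dora clone 1 and 29 without dora clone 2, and 12 when clones were not paired. The 4 falls (2 without dora clone 3) included 3 tissue-restricted copies of low level, RpS5b (-1.89), RpS19b (-1.08) and RpS15Ab (-0.59).

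Detoxification and lipid genes fell with larger spread between members. Of 26 glutathione transferase genes 19 fell and 2 rose (median -1.43). GstE9 went from 49.2, 44.7 and 118 to 1.18, 0.955 and 3.08 CPM (-5.33, SE 0.17, adjusted p = 9.02e-10), GstE2 from 126 to 12.2 CPM (-3.37) and GstD7 from 58.2 to 3.39 CPM (-4.18). GstT1, of another class, rose from 28.8, 24.0 and 25.9 to 81.3, 82.4 and 86.8 CPM (1.68), and GstO1 rose (1.08). Of 19 lipid genes 14 fell and 1 rose (median -0.44). LpR2, a lipophorin receptor, went from 46.9, 45.8 and 43.4 CPM to 1.31, 1.10 and 0.709 CPM (-5.54, SE 0.17, adjusted p = 2.8e-10), with 3 controls within a narrow range. The sterol transport gene Npc2a (-2.86), the lipid droplet gene Lsd-1 (-2.52) and the desaturase gene Desat1 (-1.12) fell, and Lpin, a phosphatidate phosphatase gene, rose (0.56). The synthesis genes FASN1 (-0.06, adjusted p = 0.525), ATPCL (adjusted p = 0.882) and AcCoAS (adjusted p = 0.448) did not pass.

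More of the listed genes of blood cell character and of the extracellular matrix fell than rose. In the hemocyte list 7 of 12 fell and 4 rose (median -1.05), beside 34.4% and 32.5% of all genes, with 2 rising without dora clone 1 or 3. With clones unpaired 3 fell. In 3 of the 12 all knockdown values lay below all controls. Ance, a secreted peptidase, went from 240.0, 178 and 131 CPM to 10.2, 7.64 and 7.69 CPM (-4.37, SE 0.09, adjusted p = 2.78e-11), and Hml, the clotting factor hemolectin, from 19.6, 50.4 and 5.33 to 2.74, 4.19 and 0.709 CPM (-3.16, SE 0.22, adjusted p = 1.7e-07). Hml differed widely between clones in the controls, and in each clone the knockdown library was lower. The phagocytic receptor gene eater fell (-3.12), whereas the transcription factor genes srp (0.44) and ush (0.32) rose.

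Levels of collagen IV transcripts differed widely between clones. Col4a1 stood at 8979, 15949 and 2400.3 CPM in clones 1, 2 and 3 with GFP RNAi and 3429, 4581 and 755 CPM with Ago1 RNAi, so the groups overlapped although each clone fell (-1.62, SE 0.10, adjusted p = 5.73e-08). vkg, the other collagen IV chain, followed the same order, from 6245, 11689 and 1794 to 2316, 3023 and 540.3 CPM (-1.70, SE 0.10, adjusted p = 5.28e-08). With clones unpaired, neither chain passed (adjusted p = 0.331 for Col4a1 and 0.302 for vkg). Of 22 integrin and basement membrane genes 12 fell and 5 rose (median -0.75). The laminin genes LanA (-0.91), LanB1 (-0.80) and LanB2 (-1.06) and the protease gene Mmp1 (-1.86) fell, and the laminin gene wb (1.43), Mmp2 (1.32) and the matrix gene Ppn (1.06) rose.

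Of 19 tested innate immunity genes 6 fell and 3 rose, beside 34.4% and 32.5% of all genes. The Toll ligand gene spz went from 199, 863 and 610.0 to 18.7, 93.9 and 111 CPM (-2.99, SE 0.37, adjusted p = 0.00165) and the NF-κB factor gene Dif from 45.6, 60.2 and 93.0 to 4.77, 10.4 and 20.9 CPM (-2.54, SE 0.17, adjusted p = 2.06e-06). The recognition genes PGRP-SD (-4.11) and PGRP-SA (-1.36) fell. imd, the adaptor of the other immune pathway, rose from 14.4 to 30.2 CPM (1.07), and its NF-κB factor gene Rel gave 0.03, SE 0.06, adjusted p = 0.709. imd overlaps GstE9 on chromosome 2R, and whether reads were assigned by strand is not given in the sources used here.

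The most increased genes by the naming rule (at least 5 CPM in the higher group, same direction in 3 clones, no overlap) were led by net, a repressor of wing vein fate, at 0.596, 0.458 and 0.786 CPM before and 2.29, 8.88 and 21.5 CPM after knockdown (4.18, SE 0.39, adjusted p = 1.16e-05). Its control level was low and the knockdown values spread widely between clones. CG31195 was far more even, at 34.4, 34.5 and 38.0 and 448, 427 and 493 CPM (3.68, SE 0.08, adjusted p = 2.78e-11). The noncoding RNA gene lncRNA:CR42549 rose from 45.5 to 363 CPM (2.99), the guidance cue gene Sema2a from 1.77 to 13.5 CPM (2.94), udt from 31.0 to 236 CPM (2.93) and RhoGAP100F from 2.60 to 18.5 CPM (2.79). The glycosyltransferase gene Mgat3 (2.46), the zinc-finger gene tef (2.52), BORCS6 (2.55) and CG3402 (2.70) completed the 20 with the junction genes, CG6583 and Smyd4-3. Of the 78 genes taken by this rule from all comparisons that have a position, 24 overlap the span of another tested gene, CG31195 that of Syp among them, so their reads are less certain.

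Of abundant genes with a 2-fold rise, the cytoplasmic actin gene Act42A was highest, from 3100.1, 2662 and 2402 to 8065, 8378 and 7538 CPM (1.56, SE 0.09, adjusted p = 3.05e-08). Its coding sequence is nearly identical to that of Act5C, which gave 0.08, SE 0.13, adjusted p = 0.622, so reads may have been shared between them. The TIR-domain gene Sarm rose from 2280.4 to 5272 CPM (1.21), the actin regulator ena from 844 to 1699 CPM (1.01), Pdcd4 from 578 to 1271 CPM (1.13) and promL from 696 to 1570.4 CPM (1.17). heca (1.04) and lncRNA:CR42862 (1.00) were the other two of these 10 not named above. Ilp6, an insulin-like peptide gene, rose from 279, 161 and 172 to 939, 844 and 631 CPM (2.00, SE 0.20, adjusted p = 0.000181), and every knockdown library had more than 3 times its own control. The secreted insulin antagonist gene ImpL2 fell at the same time, from 2706, 2715 and 1483 to 1064, 939 and 620.5 CPM (-1.38, SE 0.10, adjusted p = 2.04e-07).

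The most decreased genes fell to near 0 CPM. ringer, which encodes a microtubule-stabilising protein, stood at 33.2, 50.4 and 21.3 CPM in the controls and 0.523, 0.367 and 0.109 CPM after knockdown (-6.81, SE 0.21, adjusted p = 2.63e-10). CG13795 fell from 109, 232 and 158 to 0.653, 2.13 and 1.61 CPM (-6.78) and CG10433 from 26.1, 34.4 and 37.1 to 0.261, 0.294 and 0.573 CPM (-6.27). No control of these 3 genes came within 20-fold of its knockdown library. The tubulin gene betaTub97EF (-6.19), the serine protease gene grass (-5.63), CG31778 (-6.78), CG10063 (-5.63), CG18473 (-5.46), CG3348 (-5.38), Phk-3 (-5.29) and the C-type lectin gene lectin-28C (-5.06) also fell by over 4 log2 units. With LpR2, GstE9 and Ldh, the 20 also held CG13492, CG10359, CG10073, superdeath, CG34232 and CG10311, between -5.31 and -4.69. Among abundant falling genes were the matrix protein gene Tig, from 4259 to 1909 CPM (-1.14), the transporter gene Orct2, from 1301 to 382 CPM (-1.76), Gp150 (-1.68), Bsg (-1.38) and Idgf3 (-1.06), and 1 gene without a symbol in the reference.

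**Figure D3:**
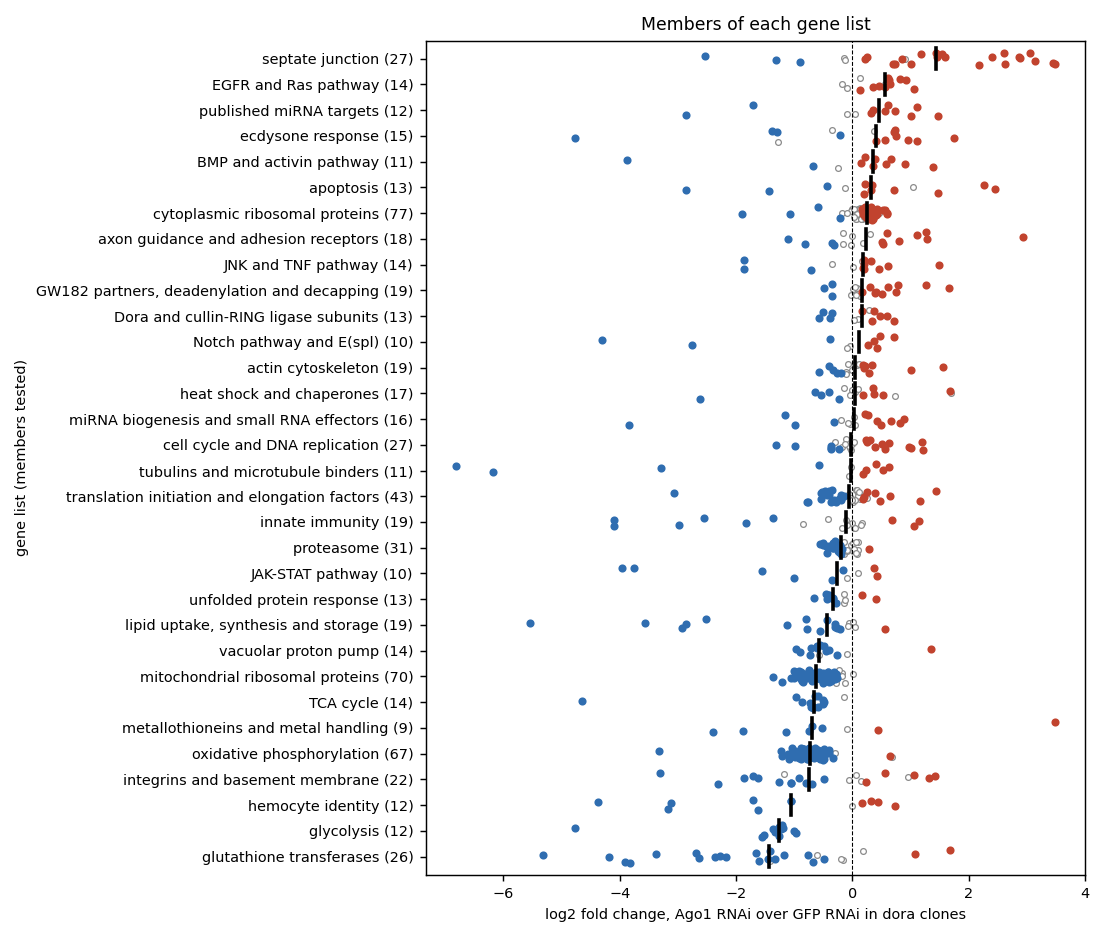
Log2 fold change (x axis) of each tested member of 32 gene lists with 9 or more members tested, with the number tested in brackets; red members rose, blue members fell, open members did not pass, black bars are list medians and the dashed line is the median of all genes (-0.01). Septate junction genes have the highest median (1.44) and glutathione transferases the lowest (-1.43).

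The other lists were mixed or moved little, where 32.5% of all genes tested rose and 34.4% fell. Of 27 cell cycle and replication genes 11 rose and 6 fell (median -0.02, positive with no filter and without dora clone 3): Cdk2 (1.19), CycB3 (1.21), E2f1 (1.01) and Cdk4 (0.97) rose, and RnrS (-1.31) and stg (-0.99) fell. Of 31 proteasome genes 17 fell and 1 rose (median -0.20), of 14 vacuolar proton pump genes 11 fell and 1 rose (median -0.56), and of 13 unfolded protein response genes 8 fell and 2 rose (median -0.33; 1 rose with DESeq2, with other scalings, with clones unpaired and without any 1 dora clone). The riser of the pump list was Vha68-1, described below. Of 43 translation factor genes 21 fell and 8 rose (4 without dora clone 1), of 19 actin cytoskeleton genes 5 fell and 7 rose, of 17 chaperone genes 5 fell (3 without dora clone 1) and 5 rose, and of 11 tubulin and microtubule genes 4 fell and 5 rose. The signs of the medians of the actin, chaperone and small RNA lists, all within 0.06 of 0, turned with upper-quartile scaling. Of 18 axon guidance and adhesion genes 8 rose, with Sema2a, robo1 (1.26) and unc-5 (1.10), and 4 fell, with NetB (-1.10) and sli (-0.81), though 2 fell without dora clone 1 or 2. With clones unpaired edgeR called 0 of the 18 lower, with 1 at an unadjusted p under 0.05, while DESeq2 with paired clones called 4. Of 9 metal handling genes 6 fell, with Tsf1 (-2.39) and Fer1HCH (-0.69), and 2 rose (1 without dora clone 1 or 2). With clones unpaired fewer members rose in the BMP and activin (5), JNK and TNF (4), translation factor (4), basement membrane (3), chaperone (3), tubulin (2), metal handling (1) and hemocyte (1) lists, and fewer fell in the actin (3), cell cycle (3), hemocyte (3), ecdysone (2) and BMP and activin (1) lists.

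Some marker genes of other tissues were called. The neuron marker elav rose from 58.2, 39.4 and 55.6 to 145, 137 and 145 CPM (1.50, SE 0.09, adjusted p = 4.63e-08), with no overlap, and the active-zone gene brp fell from 40.3 to 20.6 CPM (adjusted p = 1.02e-05). The summed neuron list ran from 87.5 to 95.9 CPM in the controls and from 159.7 to 168 CPM after knockdown, with 2 of 9 members at 0 in all dora libraries. Of the germline markers tud (0.89), gcl (0.91) and osk (1.25) rose, while aub and piwi fell. Yp3, a yolk protein gene of the fat body, was at 0.789 and 3.43 CPM (2.16), Mlc2 and Mef2 of muscle gave -1.43 and -0.34, and the cuticle gene Cpr49Ac was at 0.607 CPM or less on average. Whether other cell types played a part in any result was not tested.

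Genes described as miRNA targets in Drosophila mostly rose by moderate amounts. Of 12 tested 8 rose and 2 fell, beside 32.5% and 34.4% of all genes, with a median of 0.46. In WT clones 8 rose and 2 fell as well (median 0.51). ena, from 851, 779.6 and 901 to 1626, 1632 and 1839.6 CPM (1.01, SE 0.09, adjusted p = 8.08e-07), Eip74EF, from 20.0, 29.2 and 19.5 to 42.1, 63.1 and 42.8 CPM (1.11, SE 0.08, adjusted p = 1.82e-07), EcR (0.74), Gug (0.61), aop (0.57), sax (0.36) and ush (0.32) were among the risers. Stat92E and Bx (0.05, adjusted p = 0.712) did not pass, and rpr and sug (-1.71), both under 4 CPM in the controls, fell. Of the transcripts that trigger miRNA decay, Kah rose from 125, 118 and 73.8 to 204, 186 and 139 CPM (0.76, SE 0.07, adjusted p = 9.04e-07) and zfh1 from 1996, 1913 and 1648 to 2745, 2479.9 and 2217 CPM (0.42, SE 0.08, adjusted p = 0.000357), while hry fell from 448, 385 and 444 to 314, 312 and 353 CPM (-0.38, SE 0.06, adjusted p = 0.000197). The trigger lncRNA:marge (CR43432) had too few reads to be tested in these cells.

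The effect of Ago1 RNAi was then compared between genotypes by testing the difference of the 2 paired effects, dora minus WT. Of 130 genes called (1.65% of those tested), in 86 genes (1.09%) the effect was higher in dora clones and in 44 (0.56%) lower. The split depended on scaling, with 113 higher and 28 lower under library totals and 109 and 27 under upper quartiles. Without dora clone 1, 2 or 3 the total became 43, 41 and 50, without WT clone 1 or 3 it became 64 and 50, and without WT clone 2 it became 230. With clones unpaired 6 genes passed. Of the 86 genes 51 rose in dora clones, where 32.5% of all genes rose, and 45 fell in WT clones, where 36.1% of all genes fell. The 86 were selected for a positive difference, which favours rises in dora and falls in WT. Of the 44, 20 rose in both genotypes and 13 fell in both, to different extents. There were 19 genes called in opposite directions in the 2 genotypes, and 12 of these also passed the test of the difference.

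Several genes stood lower in dora than in WT controls and nearer to WT after knockdown. They were chosen for a positive difference, which is the change of the gap between dora and WT. Their rise relative to WT thus follows from the choice. Dronc stood at 77.2, 63.4 and 76.2 CPM in WT controls, about 2 times the dora controls, and at 222, 169 and 204 CPM in WT after knockdown, so that the knockdown groups of both genotypes overlapped (0.99, SE 0.10, adjusted p = 0.000818). Lac behaved in the same way, at 215, 175 and 159 CPM in WT controls and 679, 693 and 632 CPM in WT knockdown libraries (1.18, SE 0.11, adjusted p = 0.000501). SCOT, the ketone body enzyme gene, rose from 9.03, 9.03 and 9.15 to 19.1, 23.9 and 24.1 CPM in dora clones and lay between 20.5 and 24.7 CPM in every WT library (1.35, SE 0.15, adjusted p = 0.000818). Vha68-1, a subunit of the vacuolar pump, rose from 4.17, 3.92 and 6.85 to 9.67, 10.4 and 18.0 CPM in dora clones, with 18.4, 13.3 and 19.1 and 19.9, 17.2 and 17.4 CPM in WT (1.24, SE 0.18, adjusted p = 0.00797). The calls of Dronc, Lac, SCOT and Vha68-1 held without any 1 clone, and only those of Lac and SCOT held with clones unpaired.

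Opposite movement was seen for the TNF receptor gene and trigger transcript wgn (chrX:18624042-18634908), which rose in dora clones (0.61, SE 0.07, adjusted p = 1.47e-05) and fell in WT (-0.35), with a difference of 0.97, SE 0.11, adjusted p = 0.000818. After knockdown its mean was 230.3 CPM in dora and 229.6 CPM in WT. The peptidase gene Nepl3 rose from 109, 98.2 and 92.1 to 119.8, 134 and 114 CPM in dora clones and fell from 219, 239.8 and 189.7 to 131, 142 and 122 CPM in WT (1.01, SE 0.09, adjusted p = 0.000501). CG31548 did the same at lower levels (1.04, SE 0.17, adjusted p = 0.0148). The amino acid transporter chains JhI-21 (0.34 in dora, -0.29 in WT) and CD98hc (0.19 and -0.24), singled out after their values were seen, also went opposite ways. Replication genes were part of this set: Mcm5 (0.26 and -0.31) and Orc2 (0.30 and -0.35) rose in dora and fell in WT, and PCNA (-0.37 and -1.04), RnrL (-0.37 and -0.93) and Mcm2 (-0.23 and -0.74) fell less in dora. All 6 of the 27 cell cycle genes with a called difference, Mcm6 (0.45) included, were higher in dora, beside 1.09% of all genes. Without 1 clone in turn (6 fits), the calls of Mcm2, Mcm5, Mcm6, Orc2, PCNA and RnrL held in 2, 3, 2, 1, 3 and 1 fits, and none of the 6 held with clones unpaired.

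The genes at the largest differences were low or variable between clones. Tsp42Eg, a tetraspanin gene, fell from 3.49, 7.26 and 2.92 to 0.327, 0.220 and 0.355 CPM in dora and from 11.7, 6.32 and 12.3 to 0, 0 and 0.0981 CPM in WT, so its difference (4.39, SE 0.90, adjusted p = 0.0314) rests on a few reads in WT. Glt fell less in dora (2.65, SE 0.42, adjusted p = 0.0169), as did the transporter gene Sfxn1-3 (1.67, SE 0.29, adjusted p = 0.0302), the JAK-STAT inhibitor et (1.19, SE 0.25, adjusted p = 0.0399) and CG18547 (1.04, SE 0.21, adjusted p = 0.0302). Smyd4-3 rose in both, from 0.681, 1.57 and 1.18 to 9.80, 20.2 and 29.1 CPM in dora and from 7.15, 2.98 and 4.24 to 32.1, 17.2 and 13.1 CPM in WT (2.00, SE 0.30, adjusted p = 0.00887). Without 1 clone in turn (6 fits), these 6 calls held in 2, 4, 2, 1, 1 and 5 fits, in the order named.

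Part of the septate junction list rose less in dora than in WT clones. sinu reached 525, 369.6 and 391 CPM in WT knockdown libraries, all above the highest dora value of 173 CPM (-1.01, SE 0.11, adjusted p = 0.000818). Cont reached 2038, 1360.0 and 1484 CPM in WT and at most 886 CPM in dora (-0.79, SE 0.09, adjusted p = 0.00132), and cold reached 132, 124 and 121 CPM in WT and at most 75.0 CPM in dora (-1.11, SE 0.12, adjusted p = 0.000818). These 3 calls held without any 1 clone. kune (-0.75, SE 0.14, adjusted p = 0.0226) and Mcr (-0.60, SE 0.10, adjusted p = 0.0154) had the same sign, and each was called in 2 of the 6 fits without a clone; Lac was the 1 member with the opposite sign. CG6583, the neighbour of crok, also rose less in dora (-0.80, SE 0.17, adjusted p = 0.0443), a call that held in 2 of those 6 fits, and crok itself gave -0.06, SE 0.17, adjusted p = 0.919.

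Dad rose in WT (0.40) and fell in dora, with a difference of effect of -1.09, SE 0.19, adjusted p = 0.0167. The ABC transporter gene Atet fell in dora and gave 0.10, SE 0.11, adjusted p = 0.44 in WT. Its difference was -0.78, SE 0.16, adjusted p = 0.0397. The values in brackets below are also differences, dora minus WT. Larger falls in dora were seen for the oligopeptide transporter gene yin, from 352, 535 and 658 to 86.3, 166 and 230.4 CPM against 199, 179.9 and 257 to 109.5, 108 and 120.2 CPM in WT (-0.84, SE 0.14, adjusted p = 0.0167), and for cu (-1.01), Nepl16 (-1.68), CG10962 (-1.29) and lncRNA:CR44953 (-1.01). fy, a planar polarity gene, rose less in dora (-1.07, SE 0.21, adjusted p = 0.0259). In the 6 fits without a clone, the call held in 1 for cu and Nepl16, 2 for fy, 3 for Dad, Atet and CG10962, 4 for yin and 5 for lncRNA:CR44953, and in none of these 8 genes with clones unpaired. For yin, dora controls lay above WT controls and the groups did not overlap.

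**Figure D4:**
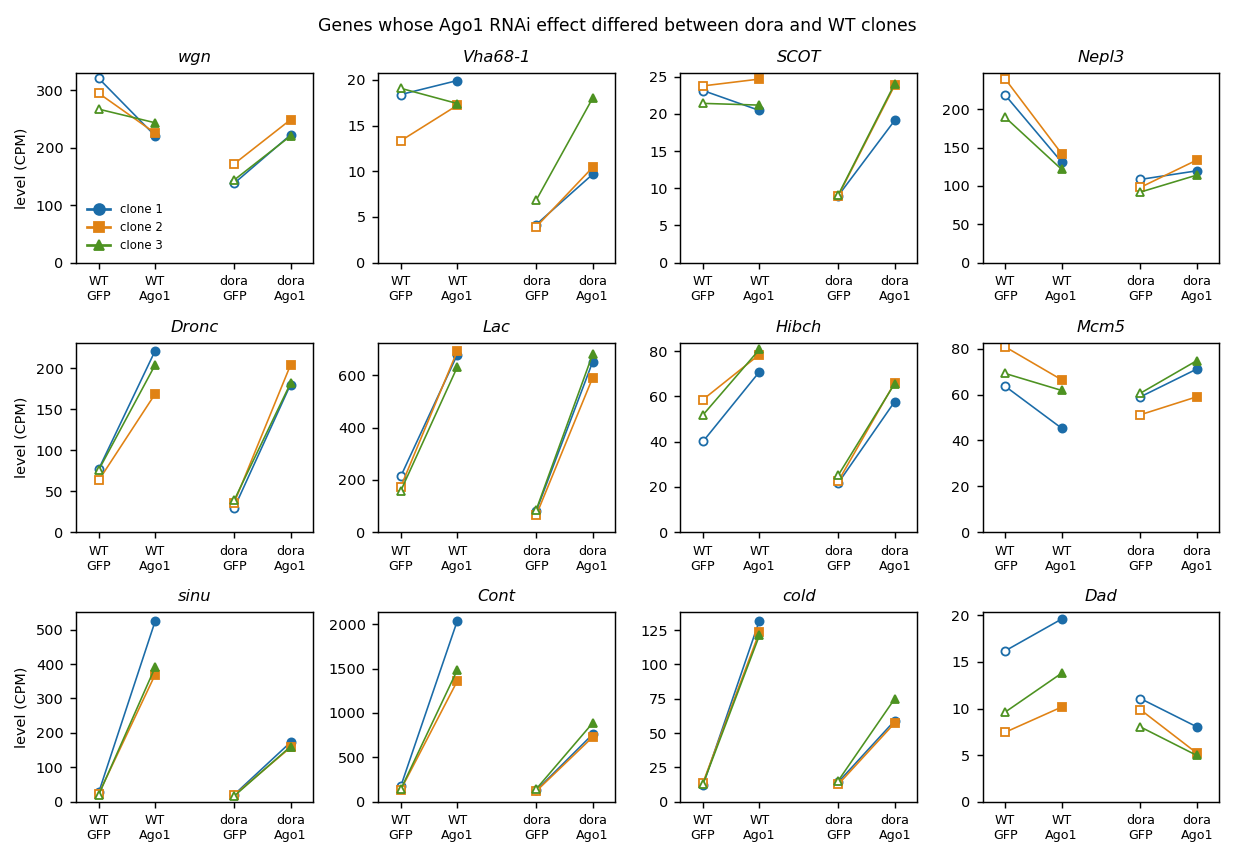
Level (CPM, each y axis from 0) of 12 genes with a called difference of effect, in WT and dora clones with GFP RNAi (open symbols) and Ago1 RNAi (filled symbols), with the 2 libraries of a clone joined. For wgn, Nepl3, Mcm5 and Dad the lines slope in opposite directions in the 2 genotypes; for sinu, Cont and cold they rise in both and end higher in WT.

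Untreated dora and WT clones, sequenced as 6 separate libraries, gave a set of genes that differ between the genotypes and share no library with the RNAi set, although the clones may be the same ones. There 129 of 7294 genes (1.77%) were lower in dora and 70 (0.96%) higher. All 129 were tested in the RNAi set, and 70 (54.3%) of them rose and 40 (31.0%) fell with Ago1 RNAi in dora clones, beside 32.5% and 34.4% of all genes. In WT clones 56 (43.4%) of the 129 rose, beside 33.7% of all genes, so part of the excess of rises was shared by WT. The median change of the 129 was 0.53 in dora and 0.03 in WT clones. With the 447 tested genes that DESeq2 called lower, the share that rose was 45.6% and the medians were 0.15 in dora and -0.11 in WT. The difference of effect was called higher in dora for 27 of the 129 (20.9%, and 31.4% of the 86) and lower for 1, beside 1.09% and 0.56% of all genes. The sign of the difference was positive in 106 of the 129 genes and in 3799 of all 7861.

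The gap between genotypes in these genes narrowed with the knockdown. Its median, as log2 of the dora over the WT mean, was -0.42 with GFP RNAi and -0.13 with Ago1 RNAi, and 123 and 93 of the 129 were lower in dora. Vang, a planar polarity gene, stood at 111, 86.8 and 100.1 CPM in dora and 187, 182 and 177 CPM in WT controls, and at 309, 277 and 259.6 and 302, 293 and 298 CPM after knockdown (0.80, SE 0.09, adjusted p = 0.00132). In the controls the genotypes did not overlap for Vang, whereas after knockdown they did. Vang and the genes named next were picked for a called difference, so the change of their gap follows from that choice. Hibch, of valine breakdown, went from 21.8, 22.6 and 25.3 to 57.8, 66.2 and 65.7 CPM in dora and from 40.1, 58.6 and 51.9 to 70.9, 78.6 and 80.8 CPM in WT (0.81, SE 0.12, adjusted p = 0.00745). Cbs, encoding cystathionine beta-synthase, rose in dora (0.81) and gave -0.01, SE 0.09, adjusted p = 0.936 in WT (0.82, SE 0.13, adjusted p = 0.0146). EndoB (0.70), GstT1 (0.75) and CG45049 (0.88) belonged to the 27 and held without any 1 clone, as did wgn, Dronc and Vha68-1. The Hedgehog pathway genes smo (0.53, SE 0.12, adjusted p = 0.0447) and cos (0.52, SE 0.08, adjusted p = 0.0132) also belonged to them, with 1 and 5 of the 6 fits without a clone. The 1 gene of the 129 with a lower effect was Btk (-0.52, SE 0.11, adjusted p = 0.0399), called in 1 of the 6 fits.

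Genes that were higher in untreated dora clones moved the other way. Of 69 tested in the RNAi set 46 (66.7%) fell and 6 (8.70%) rose with Ago1 RNAi in dora, with a median of -0.78 (-0.59 in WT). With the 387 tested genes that DESeq2 called higher, 54.5% fell and 19.1% rose, and the medians were -0.28 and -0.15. The difference was called lower for 2 of them (2.90%), and was positive in 12. The gap to WT went from 0.38 with GFP RNAi to 0.21 with Ago1 RNAi. yin was 1 of the 2 called lower, at 1.39 in untreated dora against WT clones. lectin-28C, higher in untreated dora clones (2.55), fell with Ago1 RNAi in both genotypes (-5.06 in dora and -4.62 in WT).

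**Figure D5:**
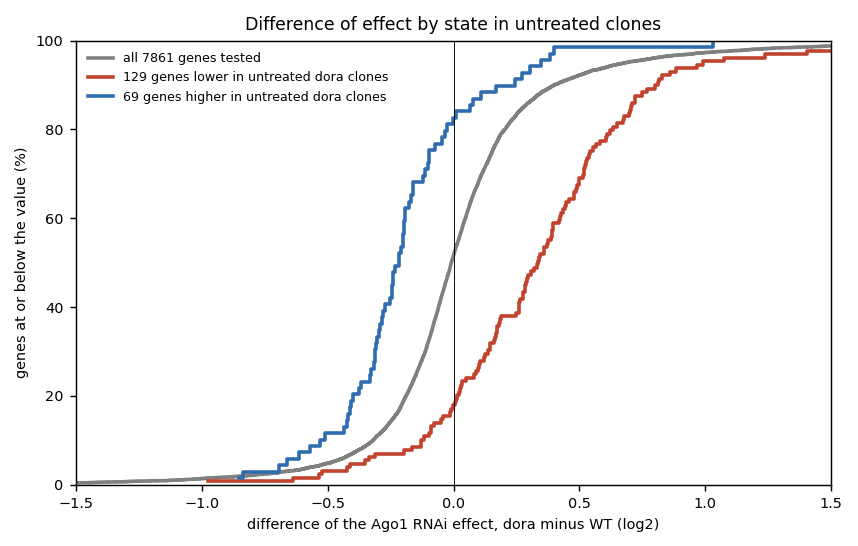
Share of genes (y axis, %) with a difference of the Ago1 RNAi effect, dora minus WT (x axis, log2), at or below each value, for all 7861 genes tested (grey), the 129 genes lower (red) and the 69 genes higher (blue) in untreated dora clones than in WT clones. The red curve lies to the right of the grey one, with a median of 0.34, and the blue curve to the left, with a median of -0.22.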

How the data were processed

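The authors deposited raw counts: whole numbers of reads per gene for all S2 RNAi libraries in 1 table and for the untreated clones in another. Per the labels, RNA was captured as mRNA, made into Kapa RNA Hyperprep libraries and read as 50-nt paired ends. STAR 2.4, HTSeq and the dm6 build are named per the submitters' processing notes; no source used here gives the strand setting or the annotation release. Reads outside single genes (no feature or ambiguous, 11.5 to 12.2% in the dora libraries) were left out. Of 17477 gene IDs, 17226 have a symbol in the reference table, and positions are from RefSeq's Release 6 table.

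edgeR 4.0.16 (R 4.3.3) fitted all 12 RNAi libraries with clone as a block and 1 Ago1 term per genotype, after filterByExpr and TMM scaling. The labels number the clones, and same-clone libraries deviated together (r 0.54 to 0.69 in dora, 0.52 to 0.62 in WT), unlike other pairs (all negative). No 2 libraries of a group agreed within sampling noise. Untreated clones were fitted apart. The code was tested on simulated data. Named genes are the 20 most changed per direction (called, at least 5 CPM, same direction in 3 clones, no overlap), the 10 most abundant past 2-fold, the 12 largest differences per sign, list members of smallest p and fixed genes; a few genes are not reported here. The members, the 38 gene lists and the rules were chosen with earlier results of these data known, so no list is independent support. Alternatives were unpaired clones, DESeq2 1.42.0 with the clone block, other scalings, no filter, dora libraries alone and each clone left out.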

Additional observations from a re-analysis of the deposited data

Results flagged for a closer look

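Genes were singled out because the Ago1 RNAi effect differed between dora and WT clones by the paired test of the difference itself (log2, dora minus WT; edgeR's quasi-likelihood test with Benjamini-Hochberg adjustment over 7861 genes). The difference was higher in dora for Tsp42Eg (4.39), Glt (2.65), Smyd4-3 (2.00), Sfxn1-3 (1.67), SCOT (1.35), Vha68-1 (1.24), et (1.19), Lac (1.18), CG18547 (1.04), CG31548 (1.04), Nepl3 (1.01), Dronc (0.99) and wgn (0.97). Among list members it was also higher for GstT1 (0.75), PCNA (0.67), Orc2 (0.65), imd (0.63), Mcm5 (0.57), RnrL (0.56), Mcm2 (0.52), MTF-1 (0.51) and Mcm6 (0.45). It was lower in dora for Nepl16 (-1.68), CG10962 (-1.29), cold (-1.11), Dad (-1.09), fy (-1.07), cu (-1.01), sinu (-1.01), lncRNA:CR44953 (-1.01), yin (-0.84), CG6583 (-0.80), Cont (-0.79) and Atet (-0.78), and among list members for kune (-0.75), brp (-0.72), Lpin (-0.69) and Mcr (-0.60). SCOT, Lac, Nepl3, cold and wgn passed also with clones unpaired. imd passed in 0 of the 6 fits without a clone and not with DESeq2.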

How the results depend on the processing

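The calls in dora clones were stable in number: 5253 genes passed, between 4027 (unpaired) and 5366 (no filter) elsewhere, 4594 to 4684 without a clone, and 1400 at 2-fold with 1306 to 1386 without a clone. AGO1 fell by 1.12 to 1.19 without a clone, and 544 distinct list members passed with 468 to 506 without a clone (list settings beyond unpaired clones and library totals were added after seeing the data). The count of differences between genotypes was not stable: 130 became 6 with no replicate block (5 higher, 1 lower) and 477 with no filter (330 and 147, of 12806 genes), and ran from 41 to 230 without a clone, dora or WT. DESeq2 gave 169 (109 and 60), library totals 141 and upper quartiles 136. Of 62 named differences, 57 lost the call with clones unpaired, 4 each with DESeq2, library totals and upper quartiles, and 30 to 37 without WT clone 1 or 3 or any dora clone; 0 changed sign. Of 186 other named genes, 9 lost the call with clones unpaired and 0 changed sign; Mlc2 lost it without dora clone 1 or 2 and Cpr49Ac with DESeq2 or without any dora clone, both under 2 CPM. When untreated calls came from DESeq2 (448 lower, 389 higher), 12.3% of lower genes had a higher difference and 54.5% of higher genes fell, with median changes in dora nearer 0 in both sets. The cause of these shifts was not tested. Pairing raised the number of calls and did not turn the direction of a named gene. Seed matches of AGO1-bound miRNAs in 3′ UTRs, with 7- or 8-base sites, were not run, since no UTR sequence was used here. Genes under about 1 CPM rest on few reads, and small changes in them were not detectable at this depth.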

Other observations

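The gene groups below were picked after their values were seen and are given as descriptions. Of 9 Hedgehog pathway genes 8 rose with Ago1 RNAi in dora clones, with a median of 0.70, where 32.5% of all genes rose and 34.4% fell. In WT clones 8 of the 9 rose as well, with a median of 0.84. The co-receptor gene boi went from 34.1, 18.2 and 12.6 to 183, 112 and 37.7 CPM (2.23) and the signal transducer smo from 30.1, 29.8 and 36.7 to 134, 132 and 128 CPM (2.03). cos, whose kinesin-like product holds back the pathway, rose from 31.6, 30.0 and 31.2 to 133, 119.8 and 125 CPM (2.02), so activators and an inhibitor rose together, while the transcription factor gene ci stayed at 0.920 and 0.907 CPM. Of 10 insulin pathway genes 5 rose and 1 fell in dora clones, and 5 rose and 1 fell in WT clones. Beside Ilp6 and ImpL2, the kinase gene Pi3K92E (0.83), Lnk (0.73) and foxo (0.55) rose in dora clones, and InR gave -0.11, SE 0.09, adjusted p = 0.288.

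Of 11 genes of branched-chain amino acid and ketone breakdown 9 rose in dora clones (median 0.87), and 7 rose and 1 fell in WT (median 0.39). The difference between genotypes was called for 5 of them, all higher in dora: SCOT (1.35), Hibch (0.81), CG17896 (0.71), Echs1 (0.56) and scu (0.53), beside 1.09% of all genes. This list too was picked after its values were seen, so its counts and medians carry no weight as a test. Without 1 clone in turn (6 fits) the calls of SCOT, Hibch and CG17896 held in all 6, that of scu in 2 and that of Echs1 in 1, and Echs1 was not called with DESeq2; SCOT alone of the 5 held with clones unpaired. CG17896 stood at 60.4, 74.6 and 77.9 CPM in dora controls and 116, 115 and 116 CPM after knockdown, with 123, 155 and 120.5 and 116, 170.0 and 116 CPM in WT. Its dora groups did not overlap, and its WT groups did. These genes moved against the other mitochondrial metabolism lists, whose medians were -0.66 (TCA cycle) and -0.73 (oxidative phosphorylation).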
